A study of Capsella grandiflora and Capsella rubella and Capsella orientalis with 27 samples.

Results

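Among the genes that take many reads in Capsella flower buds and seedlings, 57 held nearly the same share of reads in every species and at every stage. They were chosen by their own levels. Each gene's count was divided by the library's sum over all genes and multiplied by 1000000, which gives its CPM, and the 3 libraries of a group were averaged. Genes were kept that reached at least 100 CPM in all 9 groups and whose highest group mean was under 1.5 times the lowest. Of 26521 gene identifiers, 887 met the level and 57 of these met the ratio, which is 6.43% of the abundant genes and 0.215% of all. A limit of 300 genes was not reached. The evenness is that of library sums. With the trimmed mean of M-values (TMM) or relative log expression (RLE), scalings described below, 19 and 18 of the 57 met the same rule.

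The study sequenced RNA of Capsella grandiflora, an outcrossing plant of the mustard family, and of its self-fertilising relatives Capsella rubella and Capsella orientalis. Each species was sampled as expanding or maturing flower buds, as dividing flower buds and as seedlings 10 days old, with 3 libraries in each of the 9 groups. The labels give no accession, treatment or growth condition and do not say whether replicates came from separate plants, so the spread between replicates may be technical. Buds and seedlings are mixtures of cell types, and fewer cells of a type cannot be told apart from less RNA per cell. Reads of all 3 species were counted on a single list of identifiers in the form of C. rubella gene models, which the files do not pair with gene names. No function is therefore given to any gene here, and the tissues could not be checked against marker genes. A gene left with few reads in a species could not have entered the list, since every group mean had to reach 100 CPM. A loss of reads that left the gene above that level could pass the rule. Such a loss could lower a level or even out a difference between species, and it cannot be told apart here from the gene's own level.

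Genes that stay even across organs and conditions are often called housekeeping genes, because many of them serve processes that every living cell needs, such as protein synthesis, protein turnover, membrane traffic and energy supply. A few such genes are used as reference genes in quantitative PCR, where the level of a gene of interest is read relative to theirs. An even share of the sequenced reads is not the same as an even number of molecules per cell: a gene's share falls when other genes take more of the reads.

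Depth did not limit the levels of these genes. Libraries held between 10612848 and 40909319 gene counts, and the shallowest was of C. grandiflora seedlings. The lowest count of any of the 57 genes in any library was 1089, where counting error alone is 3.03%, and the median count was 5996, where it is 1.29%. These figures cover counting error only.

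Evenness of this degree was uncommon among abundant genes on library sums, and less so with the other scalings. The rule was met by 115 of 942 genes with TMM factors and by 131 of 943 with RLE factors. On library sums, the median ratio of the highest to the lowest group mean over the 887 abundant genes was 2.25, and 305 of them stayed under 2. At the other end, 18 genes reached a ratio of 10 or more, and the largest was 72.5. The 57 genes had ratios from 1.17 to 1.49 with a median of 1.39, and 11 were under 1.3. Just inside the limit stood Carubv10007773m.g, Carubv10005318m.g and Carubv10017007m.g, with ratios of 1.49, 1.49 and 1.49. The first genes outside it were Carubv10008292m.g, Carubv10011722m.g and Carubv10002932m.g, each with a ratio of 1.51. Nothing separates the sides of the limit, which falls within an unbroken run of values.

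On the scale of library sums, abundant genes missed the rule more often on the stage axis than on the species axis, and most often on both. The 3 species stayed under 1.5-fold of each other at every stage for 424 of the 887 genes, whereas the 3 stages stayed under 1.5-fold of each other in every species for 127. Both held for 99 genes, and the further demand that all 9 means lie within 1.5-fold left 57. Of the 830 other abundant genes, 435 reached 1.5 on both axes, 325 among stages only, 28 among species only and 42 on neither axis alone. Among the 830 other abundant genes, the largest stage ratio exceeded the largest species ratio in 721. In the 57 genes the axes were close, with a median largest species ratio of 1.29 and a median largest stage ratio of 1.29, and stage was the larger in 34. Over all 887 abundant genes the corresponding medians were 1.52 and 1.97. All of these are descriptions of the group means that chose the genes, and they were not counted again on another scale.

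**Figure D1:**
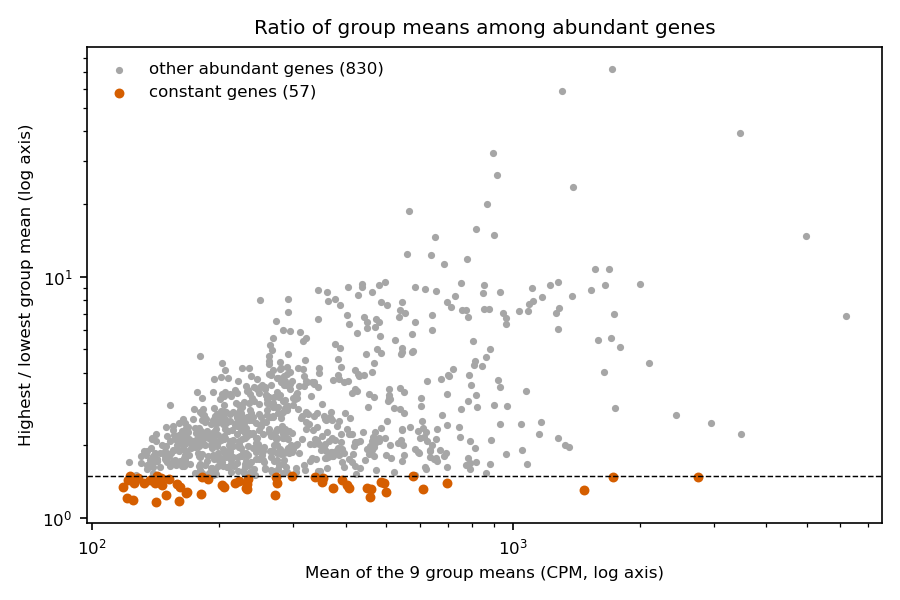
Each point is 1 of the 887 genes with at least 100 CPM in all 9 groups, placed by the mean of its 9 group means in CPM (horizontal log axis) and by its highest group mean divided by its lowest (vertical log axis). The 57 constant genes lie under the dashed line at 1.5, between 118 and 2761 CPM, and the 830 others reach up to 72.5.

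The evenest gene was Carubv10017218m.g, with a ratio of 1.17. In expanding buds its libraries held 134, 132 and 134 CPM in C. grandiflora, 144, 137 and 135 CPM in C. rubella and 152, 149 and 146 CPM in C. orientalis. In dividing buds its libraries held 143, 145 and 141 CPM in C. grandiflora, 152, 149 and 149.8 CPM in C. rubella and 143, 157 and 141 CPM in C. orientalis. In seedlings its libraries held 141, 147 and 134 CPM in C. grandiflora, 123, 127 and 137 CPM in C. rubella and 148, 143 and 153 CPM in C. orientalis. Libraries of different groups interleave, and the C. rubella seedling libraries lay lowest on average. The group means ran from 129 ± 7.31 CPM in C. rubella seedlings to 150.3 ± 1.39 CPM in C. rubella dividing buds (SD, n = 3 each). The highest single library, a C. orientalis dividing bud library, was 1.28 times the lowest, a C. rubella seedling library. That was also the smallest such ratio over single libraries among the 57 genes.

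The next in order, Carubv10026938m.g, had a ratio of 1.18 and ran from 149.96 ± 14.2 CPM in C. grandiflora expanding buds to 177 ± 11.6 CPM in C. orientalis seedlings. In expanding buds its libraries held 157, 159 and 134 CPM in C. grandiflora, 162, 152 and 151 CPM in C. rubella and 189.7, 176 and 165 CPM in C. orientalis. In dividing buds its libraries held 162, 158 and 146 CPM in C. grandiflora, 164, 156 and 164 CPM in C. rubella and 163, 167 and 155 CPM in C. orientalis. In seedlings its libraries held 158, 158 and 146 CPM in C. grandiflora, 163, 134 and 156 CPM in C. rubella and 169, 172 and 190.4 CPM in C. orientalis. Here the replicates scattered almost as widely as the groups: the spread between replicates made up 44.4% of the gene's sum of squares on the log2 scale, species 40.2% and stage 0.0489%. C. orientalis held the highest mean in expanding buds and in seedlings, at 177 ± 12.5 CPM and 177 ± 11.6 CPM.

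Carubv10019537m.g, the third, ran from 114 ± 2.57 CPM in C. rubella seedlings to 136 ± 6.36 CPM in C. rubella dividing buds, a ratio of 1.19. In expanding buds its libraries held 132, 133 and 132 CPM in C. grandiflora, 127, 129 and 129.9 CPM in C. rubella and 123, 129 and 128 CPM in C. orientalis. In dividing buds its libraries held 136, 130.4 and 114 CPM in C. grandiflora, 139, 128 and 139.5 CPM in C. rubella and 122, 123 and 111 CPM in C. orientalis. In seedlings its libraries held 121, 103 and 136 CPM in C. grandiflora, 115, 111 and 115 CPM in C. rubella and 114, 127 and 125 CPM in C. orientalis. Its expanding bud libraries were tight, while those of C. grandiflora seedlings, the shallowest group, spread over 13.9% (coefficient of variation, the SD as a percent of the mean).

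The others of the 10 evenest genes had ratios from 1.21 to 1.28. Carubv10021987m.g ran from 109 ± 0.725 CPM in C. rubella dividing buds to 132 ± 3.29 CPM in C. grandiflora dividing buds. Carubv10009646m.g was more abundant, from 419.6 ± 12.1 CPM in C. orientalis dividing buds to 514 ± 30.2 CPM in C. grandiflora dividing buds. In both genes the highest and the lowest group were dividing buds of different species. Carubv10023246m.g spanned 123 to 170.5 CPM over the 27 libraries, with a median of 149 CPM. Carubv10000637m.g had both its extremes in C. grandiflora, from 246 ± 19.1 CPM in C. grandiflora seedlings to 307 ± 7.09 CPM in C. grandiflora expanding buds. Carubv10026478m.g and Carubv10020439m.g had tight replicates, with median coefficients of variation of 2.84% and 2.25% over the groups. On library sums both had lower means in seedlings than in buds of the same species: Carubv10026478m.g stood at 164 ± 4.64 CPM, 160.2 ± 3.9 CPM and 171 ± 5.85 CPM in seedlings of C. grandiflora, C. rubella and C. orientalis. Its lowest bud mean was 175 CPM. That order turned with the trimmed mean of M-values, a scaling described below, where its highest mean was in C. orientalis seedlings. Carubv10012030m.g was the most abundant of the 10 and spanned 440.4 to 653 CPM over the 27 libraries, with a median of 483 CPM. Over single libraries, the 10 genes had ratios of 1.28 to 1.48.

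**Figure D2:**
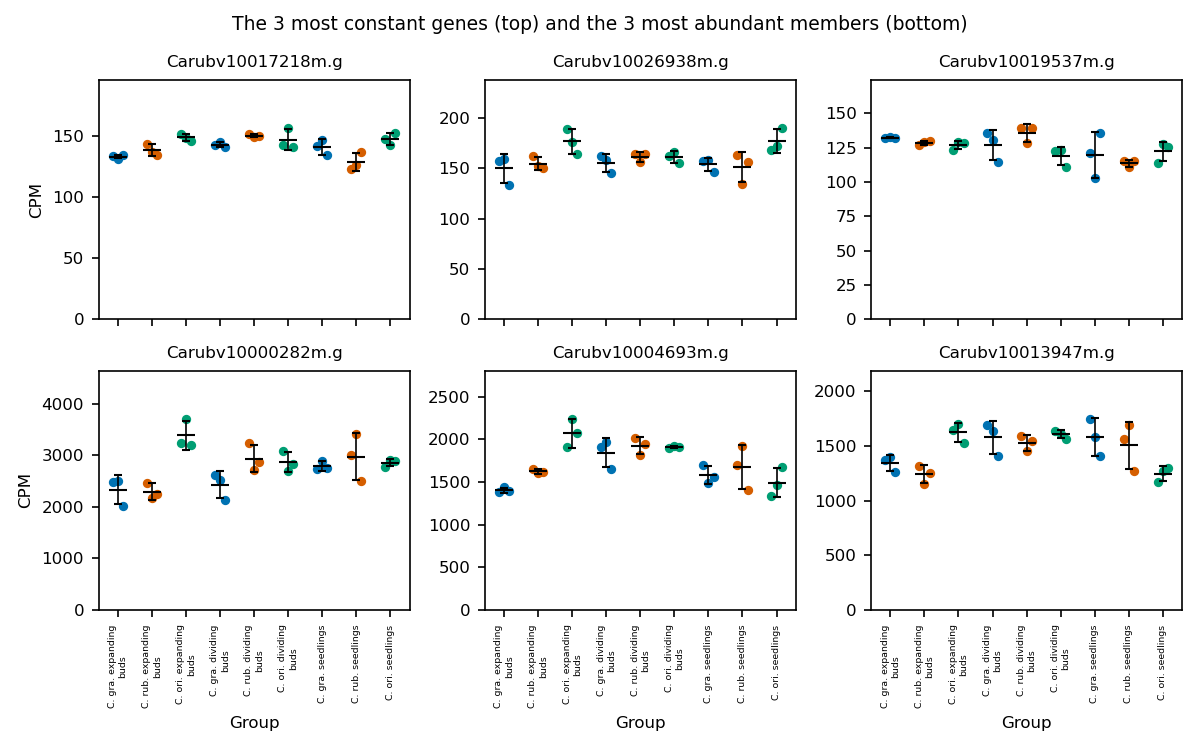
CPM of the 3 most constant genes (top) and of the 3 members that took the most reads (bottom) in each of the 9 groups. Points are libraries, coloured by species (blue C. grandiflora, orange C. rubella, green C. orientalis), with bars for the mean and SD of 3 libraries and axes from 0. The top genes stay between 103 and 190.4 CPM in every library, and Carubv10000282m.g ranges from 2019 to 3710 CPM.

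Together the 57 genes took a small and steady part of the reads, 2.00% ± 0.109 of gene counts over the 27 libraries (SD). Group means ranged from 1.89% ± 0.0792 in C. orientalis seedlings to 2.16% ± 0.067 in C. orientalis expanding buds (SD, n = 3 each). Over the same groups the share of all 887 abundant genes ran from 28.9% ± 0.186 in C. grandiflora expanding buds to 44.9% ± 0.584 in C. orientalis seedlings. The steadiness of the smaller share follows from the rule and was not tested. The 3 members that took the most reads held 0.596% ± 0.0725 of gene counts (SD, 27 libraries), 29.7% of the reads of the whole list. Gene lengths are not in the files, so a higher CPM of one gene than another is a larger share of reads and not a comparison of RNA levels.

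The gene with the most reads was Carubv10000282m.g. In expanding buds its libraries held 2486, 2496 and 2019 CPM in C. grandiflora, 2469, 2159.97 and 2244 CPM in C. rubella and 3237, 3710.2 and 3200.4 CPM in C. orientalis. In dividing buds its libraries held 2622, 2526 and 2132 CPM in C. grandiflora, 3228, 2713 and 2861 CPM in C. rubella and 3075, 2698 and 2824 CPM in C. orientalis. In seedlings its libraries held 2727, 2894 and 2744 CPM in C. grandiflora, 3002, 3412 and 2499.98 CPM in C. rubella and 2775, 2899.9 and 2881 CPM in C. orientalis. Its ratio was 1.48, close to the limit. C. orientalis expanding buds stood apart from the expanding buds of the other species, while the seedling means, 2788 ± 92.3 CPM, 2971 ± 457 CPM and 2852 ± 67.5 CPM in C. grandiflora, C. rubella and C. orientalis, differed by less than the replicate SD of C. rubella. Carubv10004693m.g showed the same high group and ran from 1403 ± 31 CPM in C. grandiflora expanding buds to 2074 ± 169.9 CPM in C. orientalis expanding buds. Carubv10013947m.g was more even, from 1241 ± 81.8 CPM in C. rubella expanding buds to 1625 ± 89.9 CPM in C. orientalis expanding buds, a ratio of 1.31.

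The other members among the 10 with the most reads had means under 1000 CPM. Orders of stages and of species given for them are those on library sums and can turn with the scaling. Carubv10019973m.g was lowest in dividing buds in each species and ran from 575 ± 22.2 CPM in C. rubella dividing buds to 804 ± 29.3 CPM in C. orientalis expanding buds. Carubv10017399m.g spanned 487 to 769.8 CPM over the 27 libraries, with a median of 601 CPM. Carubv10020404m.g went down from expanding buds to dividing buds to seedlings in every species, by means of 708, 578 and 507 CPM in C. grandiflora. Carubv10020374m.g had its highest mean of each stage in C. rubella, at 524 ± 10.9 CPM for expanding buds, 585 ± 25.2 CPM for dividing buds and 549.9 ± 66.6 CPM for seedlings. Carubv10023123m.g was flat in buds, with means of 478 to 536 CPM, and stood at 378 ± 23.4 CPM in C. orientalis seedlings. Carubv10001913m.g spanned 352 to 580.3 CPM over the 27 libraries, with a median of 457 CPM, and its 3 C. grandiflora seedling libraries alone covered 580.3, 398 and 452 CPM. Carubv10012030m.g, described above, completes the 10.

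Small departures from evenness leaned towards C. orientalis expanding buds. That group held the highest mean of 19 of the 57 genes, and C. rubella dividing buds of 9. C. orientalis seedlings held the lowest mean of 13 and C. grandiflora expanding buds of 10. Relative to each gene's mean over the groups, the median log2 level was 0.10 in C. orientalis expanding buds and -0.07 in C. orientalis seedlings, and between -0.05 and 0.07 in the other groups. Single genes departed by -0.42 to 0.37. In C. orientalis, 32 of the 57 genes were highest in expanding buds and 33 were lower in seedlings than in both bud stages. The corresponding counts were 17 and 18 in C. grandiflora and 18 and 26 in C. rubella. These counts are on the scale of library sums and change with the scaling, as given below.

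**Figure D3:**
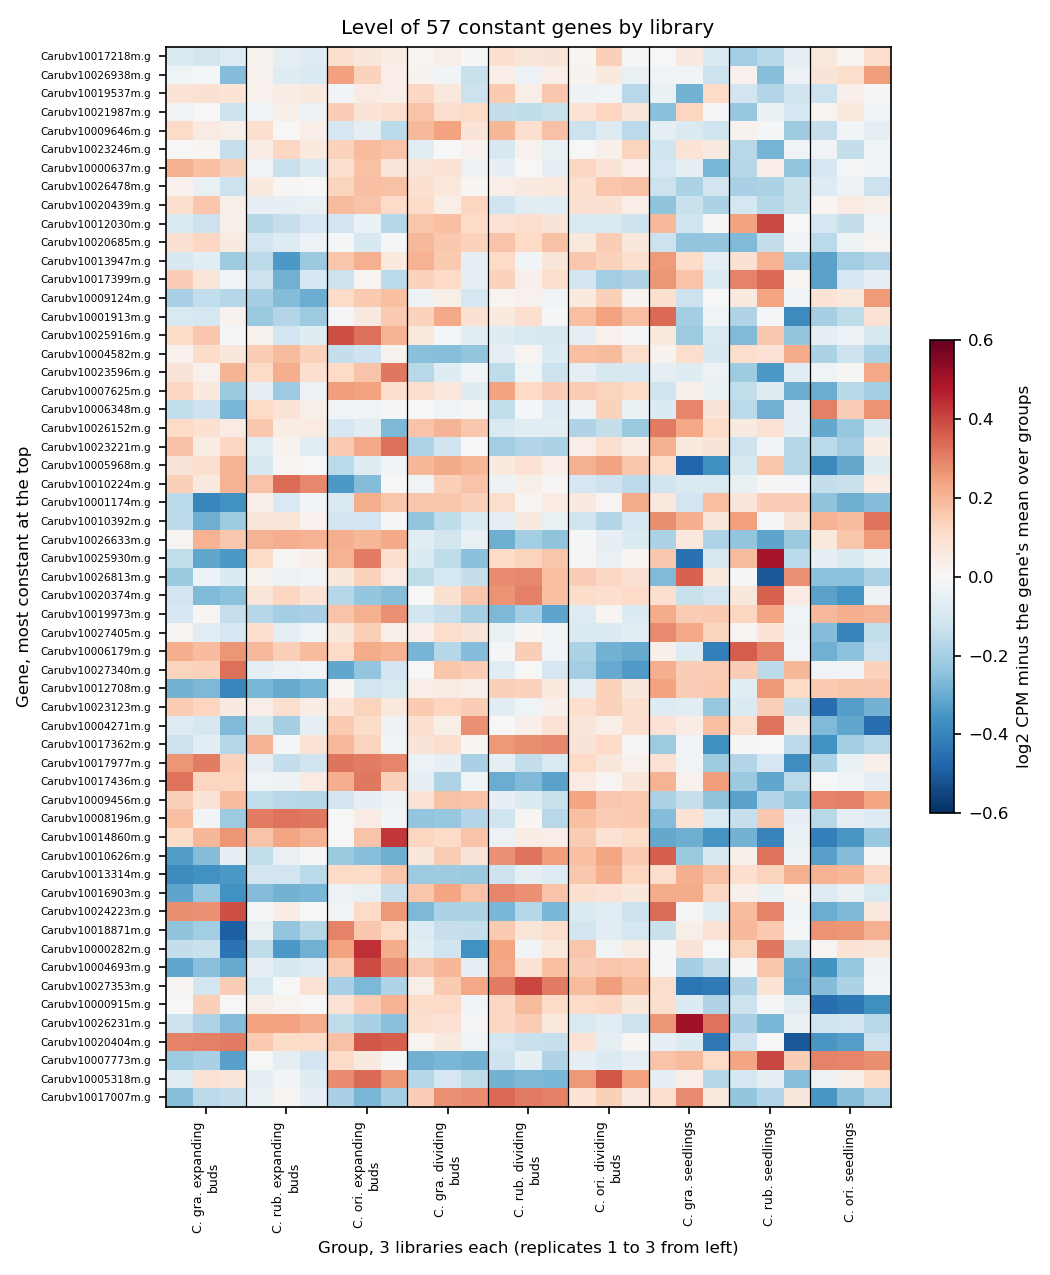
Heat map of the 57 constant genes (rows, smallest ratio at the top) in the 27 libraries (columns, grouped in threes by species and stage). Colour is the log2 CPM minus the gene's mean over the 9 groups, from -0.6 (blue) to 0.6 (red). Colours deepen towards the bottom rows, and the seedling columns of C. grandiflora and C. rubella differ most within their groups of 3.

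On library sums the variation left in the 57 genes was divided among several sources. On log2 CPM, the median share of a gene's sum of squares was 31.3% for stage, 20.97% for species, 19.3% for their interaction and 19.97% for replicates. In the 830 other abundant genes the medians were 71.8%, 10.97%, 7.26% and 4.23%. Stage was the largest source in 23 of the 57 genes and in 719 of the 830. Species was the largest in 15 (26.3%) against 77 (9.28%), the interaction in 11 against 32, and replicates in 8 against 2. Total SD on the log2 scale over the 27 libraries had a median of 0.18 in the 57 genes and 0.42 in the others, while the SD within groups was 0.09 and 0.11. Because the rule limits the spread between group means, a lower stage share and a higher replicate share than in the other genes follow from the choice and are a description only. The shares also moved with the scaling. With TMM factors, the scaling described below, stage had a median share of 55.9% and was the largest source in 45 of the 57 genes, species in 2, and the 830 other genes had a median stage share of 64.9%. With RLE factors, also described below, the stage share of the 57 was 58.7% and stage was the largest source in 47.

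The genes with the largest share of each source, picked after their values were seen, show what these shares look like on library sums. Carubv10026152m.g differed mostly by species (75.9% of its sum of squares): C. orientalis held 106 ± 7.68 CPM, 104 ± 2.81 CPM and 102 ± 7.87 CPM in expanding buds, dividing buds and seedlings, and C. grandiflora 125 ± 3.06 CPM, 133 ± 1.95 CPM and 137 ± 9.33 CPM. Carubv10014860m.g differed by stage (83.8%). Its seedling means were 121 ± 2.7 CPM, 128 ± 16.3 CPM and 119.96 ± 7.83 CPM in C. grandiflora, C. rubella and C. orientalis, and its expanding bud means 172 ± 9.33 CPM, 174 ± 4.06 CPM and 174 ± 25.8 CPM. In Carubv10004582m.g the interaction held 64.5%: C. grandiflora was lowest in dividing buds, at 376 ± 2.16 CPM against 468 ± 13.7 CPM in expanding buds, while C. orientalis was higher there than in expanding buds, at 499 ± 15.1 CPM against 422 ± 26.9 CPM. Replicates held 50.6% in Carubv10026813m.g, whose C. rubella seedling libraries had 124, 88.4 and 152 CPM and whose C. grandiflora seedling libraries had 104, 160.2 and 130.3 CPM. The lowest and the highest of the 27 values of that gene were both seedling libraries.

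Replicates of the 57 genes were about as close as those of other abundant genes. The median coefficient of variation within groups was 4.63% in the 57, from 2.25% to 8.41% by gene, 5.21% in the 830 other abundant genes and 9.63% over the 23186 genes tested. Since the rule favours genes whose means are little disturbed by noise, the small difference was not tested. By group, the median was 2.66% in C. rubella expanding buds, 2.71% in C. orientalis dividing buds, 7.77% in C. grandiflora seedlings and 9.17% in C. rubella seedlings. In the same groups it was 3.72%, 2.80%, 9.71% and 9.01% for the other abundant genes. In C. rubella seedlings 24 of the 57 genes varied by 10% or more, and in C. grandiflora seedlings 21. For all of the 10 genes with the most reads, the second C. rubella seedling library was the highest of the group and the third the lowest, an order found in 26 of the 57. No such count over the other abundant genes is given here, so the order is not read as a trait of these genes. The 57 genes took 2.18% of gene counts in that second library and 1.85% in the third, at similar depths of 24964019 and 26575001 counts. No single library decided the list, which held 51 to 61 genes when any 1 of the 27 was left out.

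Because the same libraries chose the genes and described them, evenness was read again in libraries that had no part in the choice. The rule was applied without the libraries numbered 1, 2 or 3 in turn, and the highest of the 9 libraries left out, 1 per group, was divided by the lowest. Without replicate 1 the rule chose 54 genes, whose median ratio was 1.39 in the groups that chose them and 1.45 in the libraries left out, where 35 of the 54 (64.8%) stayed under 1.5. Without replicate 2 it chose 55 genes, with medians of 1.37 and 1.47, and 33 (60%) stayed under. Without replicate 3 it chose 50, with medians of 1.39 and 1.45, and 35 (70%) stayed under. Each chosen gene stayed under 2 in the libraries left out. Of the other abundant genes, 9 of 830 (1.08%), 7 of 821 (0.853%) and 12 of 831 (1.44%) were under 1.5 there, and their median ratios were 2.42, 2.38 and 2.38. These other genes included 7, 3 and 12 of the 57, and without those 5 of 823, 5 of 818 and 7 of 819 were under 1.5. They were the genes with a ratio of 1.5 or more in the choosing libraries of the same groups. Their small share therefore largely follows from the choice, and its gap to the chosen genes was not tested. A ratio of single libraries carries more noise than a ratio of means, which widens it in both sets. Of the 54, 55 and 50 genes, 50, 53 and 43 were among the 57. This reading was added after the data were seen. It asks about other libraries of the same series, not about other plants or conditions.

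**Figure D4:**
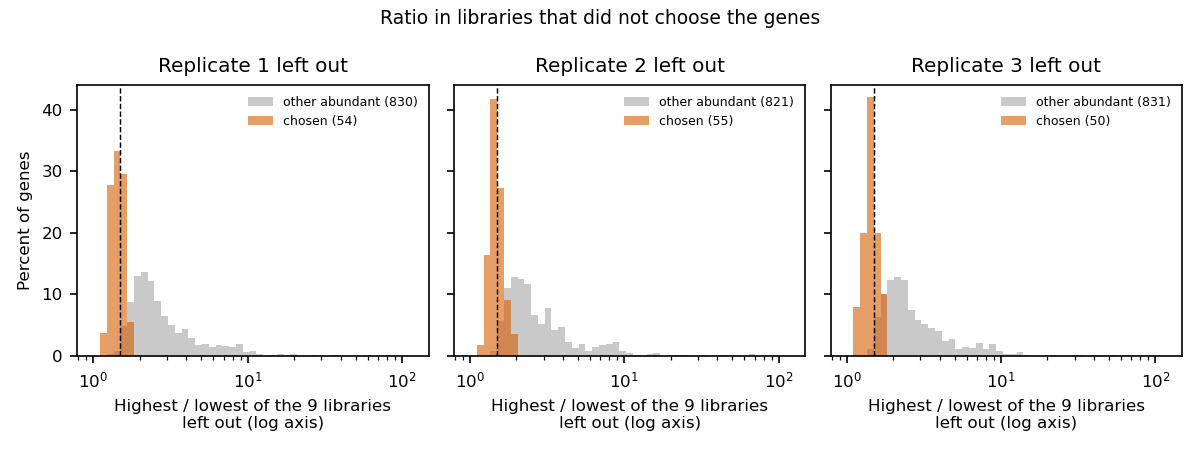
Percent of genes (vertical) by the ratio of the highest to the lowest of 9 libraries that did not choose them (horizontal log axis), with replicate 1, 2 or 3 left out of the choice. Orange shows the 54, 55 and 50 chosen genes and grey the other abundant genes. Chosen genes lie around the dashed line at 1.5 and all under 2, where 25.7% to 28.5% of the other genes also lie.

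Which genes count as even depended on the scale. Library sums give each library the same total, whereas the trimmed mean of M-values (TMM) and relative log expression (RLE) bring the bulk of genes to a common level. The group means of the TMM factor, by which library sums were multiplied, were 1.12 to 1.18 in dividing buds, 0.953 to 1.05 in expanding buds and 0.831 to 0.933 in seedlings. With TMM factors 942 genes reached 100 CPM in all groups and 115 met the rule, of which 19 were among the 57 (33.3% of the 57 and 16.5% of the 115). With RLE factors 131 met it, 18 of them among the 57 (31.6% and 13.7%). The ratios of the 57 genes themselves had a median of 1.56 with TMM and 1.62 with RLE and reached 2.12 and 2.13.

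The shift went one way. With TMM factors 47 of the 57 genes had their highest mean in seedlings and 43 their lowest in dividing buds, and with RLE 51 and 43. On library sums 15 were highest in seedlings and 12 lowest in dividing buds. In C. grandiflora, the median log2 difference of the 57 genes, dividing buds minus seedlings, was -0.34 with TMM, -0.37 with RLE and 0.01 on library sums. The median over all 23186 genes tested was 0.07, 0.04 and 0.42 on the same scales, so the 57 genes minus all genes came to -0.41 on each. In C. rubella this distance was -0.53 with TMM and RLE and -0.52 on library sums, and in C. orientalis it was -0.46 on all 3. For expanding buds minus seedlings the distances with TMM were -0.10 in C. grandiflora, -0.42 in C. rubella and -0.27 in C. orientalis. Genes chosen to be level on library sums must stand at such a distance wherever the bulk of genes shifts, and nothing further is read from it. Medians of the 9 comparisons between species ran from -0.12 to 0.17 with TMM, and those of the 9 between stages from -0.43 to 0.25. The sign of 5 of the species medians differed between scalings. The C. grandiflora seedling libraries were uneven: relative to each gene's mean, the median of the 57 genes with TMM was 0.27 in replicate 1, -0.0087 in replicate 2 and 0.030 in replicate 3. The 6 seedling libraries of the other species lay between 0.15 and 0.28, and the 9 dividing bud libraries between -0.26 and -0.082.

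**Figure D5:**
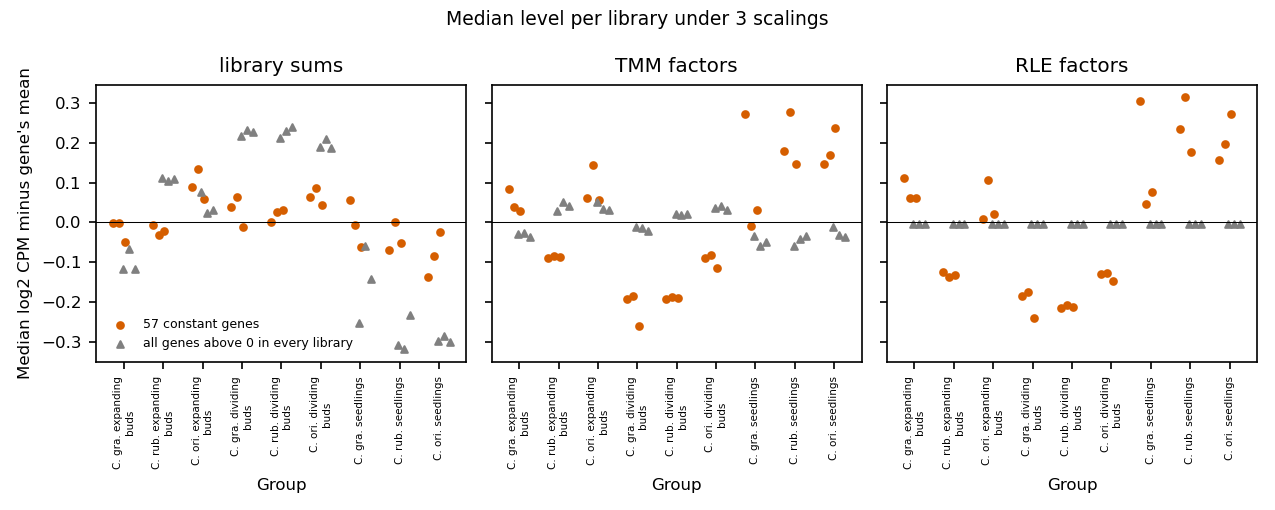
Median log2 CPM relative to each gene's mean (vertical) in each library, for the 57 constant genes (orange points) and for all tested genes with a count above 0 in every library (grey triangles), on library sums, with TMM factors and with RLE factors. On library sums the 57 genes lie near 0 while the bulk of genes is high in dividing buds and low in seedlings, and with TMM and RLE the 57 genes are low in every dividing bud library and high in the seedling libraries of C. rubella and C. orientalis and in the first of C. grandiflora. Grey points at 0 under RLE follow from how RLE is built.

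A core of 17 genes kept a ratio under 1.5 on all 3 scales, 6 of them among the 10 evenest on library sums and 3 among the 10 with the most reads. By the largest of its 3 ratios, Carubv10026478m.g was the evenest, at 1.26 on library sums, 1.29 with TMM and 1.31 with RLE. Carubv10007625m.g followed with 1.34, 1.32 and 1.28, then Carubv10020685m.g with 1.29, 1.28 and 1.34, and Carubv10005968m.g with 1.37, 1.29 and 1.35. These 4 are the genes whose 3 ratios were all under 1.4, a summary chosen after the values were seen. Carubv10017218m.g, the evenest on library sums at 1.17, came to 1.47 with TMM and 1.48 with RLE. Carubv10004693m.g, with the second most reads, had 1.48, 1.41 and 1.37.

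A place on the list does not mean that no difference was detected. The tests ran with TMM factors, where the ratios of the 57 genes had a median of 1.56 and reached 2.12, and 19 genes stayed under 1.5. The calls, of stages above all, are therefore not calls of the small differences on library sums. edgeR's quasi-likelihood F test over the 9 groups called 55 of the 57 genes at a Benjamini-Hochberg adjusted p under 0.05, where 99.7% of all 23186 tested genes were called. Tests of the 3 species within a stage called 38 of the 57 for expanding buds, 22 for dividing buds and 33 for seedlings, where 83.3%, 76.5% and 73.2% of all genes were called. Tests of the 3 stages within a species called 48 in C. grandiflora, 52 in C. rubella and 42 in C. orientalis, where 92.5%, 90.6% and 86.1% of all genes were called. The rule used the same group means, so the counts describe the list and no difference from the background is read from them. The median standard error of a log2 difference between a pair of groups was 0.08, from a fit that shares each gene's spread over all 9 groups. It does not follow the replicate spread of single groups. In the 57 genes the median coefficient of variation ran from 2.66% in C. rubella expanding buds to 9.17% in C. rubella seedlings. With a standard error of this size, differences well under 1.5-fold on the TMM scale can pass. The species counts are sensitive to the fit: with only the groups compared, 40 of the 57 genes were called in dividing buds and 13 in seedlings, where 86.7% and 67.97% of all genes in those fits were called. Leaving out 1 replicate number gave 22 to 25 in expanding buds, 10 to 15 in dividing buds and 18 to 30 in seedlings, the lowest in seedlings without replicate 2. In the same fits the share of all genes called was 73.7% to 76.7%, 65.8% to 67.4% and 62.6% to 66.4%.

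Evenness and a missed call were different things. Of the 57 genes, 10 were called in all 6 tests of species or stages, as were 40.5% of all genes tested, and 1 was called in none, as were 0.22% of all genes tested. Carubv10026478m.g, the evenest over the 3 scales, was called in all 6, as was Carubv10020439m.g, whose replicates were the closest of the list with a median coefficient of variation of 2.25%. The gene called in none, Carubv10027353m.g, singled out after its values were seen, had a ratio of 1.48 on library sums and 1.28 with TMM. Its C. grandiflora seedling libraries held 360.3, 248 and 249.6 CPM and its C. grandiflora dividing bud libraries 343, 373 and 393 CPM. The SD of those seedling libraries was 64.3 CPM, so a missed call does not show that its level was the same.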

How the data were processed

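Per the submitters' processing notes, the authors trimmed reads with Trimmomatic and counted them per gene with HTSeq, and they deposited raw read counts, 1 file per library. Whether strand was used, and the build, annotation, aligner and versions, were not given in the sources used here; overlapping genes and near-identical copies may share reads. Per the labels' protocols the libraries were TruSeq RNA libraries read in single reads of 50 cycles. The 5 summary rows (reads outside genes 2.97% to 5.69% of a library, ambiguous 3.67% to 4.65%, multiply aligned 4.03% to 9.44%) were left out. No gene names, genome or sequences were used here, so planned lists by gene name, reference gene names and promoter and protein features were not run.

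Gene counts per library were 10612848 to 40909319. CPM was computed from library sums in Python 3.11.15 and pandas 2.3.3. All 27 libraries were fitted as 9 group means in edgeR 4.0.16 (R 4.3.3), after filterByExpr (23186 genes kept, all 57 among them) and TMM scaling. They were tested by quasi-likelihood F tests with Benjamini-Hochberg adjustment over all genes tested. The method was also run on simulated counts with a single spread, where some genes were raised in 1 group and the others held level. Most genes differ between groups here, so that run does not vouch for the calls in these data. RLE, no filter, DESeq2 1.42.0 likelihood ratio tests, a replicate block, smaller fits and left-out libraries were the alternatives. Replicate pairs differed by more than sampling noise (chi-square per degree of freedom 5.14 to 42.95 over genes with at least 20 counts). All libraries entered the fits as separate replicates, but variation of this kind may still be technical.

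The members and lists were chosen with earlier results of these data known. Genes named are the 10 of smallest ratio, the 10 of highest CPM, the 3 on either side of the limit, and those said to have been picked after their values were seen.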

Additional observations from a re-analysis of the deposited data

How the results depend on the processing

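The list of 57 genes changed most with scaling and limits. TMM factors gave 115 genes and RLE factors 131, sharing 19 and 18 with the 57. A minimum of 50 CPM gave 138 and one of 200 CPM 24, and a limit of 1.3 gave 11. Group medians gave 54. Leaving out single libraries or replicate numbers gave 50 to 61. Genes chosen with TMM factors stayed under 1.5 in the libraries left out in 60.4%, 49.6% and 52.3% of cases without replicates 1, 2 and 3, where library sums gave 64.8%, 60% and 70%.

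Of the counts of the 57 genes called, a fit of the compared groups moved dividing buds from 22 to 40 (76.5% to 86.7% of all genes) and seedlings from 33 to 13 (73.2% to 67.97%). Leaving out a replicate number gave 22 to 25 of 38 in expanding buds, 10 to 15 of 22 in dividing buds and 18 to 30 of 33 in seedlings, with fewer of all genes called as well; in these fewer libraries enter, and the cause of the other changes was not tested. The other 4 F tests stayed within 1.5 times their counts under each alternative run, and so did all 7 with RLE factors, no filter and DESeq2. Replicate numbers did not pair the libraries: deviations of same-numbered libraries correlated at a median of -0.0048, and 7 of 27 libraries were closest to their own number. With the replicate block the calls were 55 over all groups, 36, 22 and 33 for species in expanding buds, dividing buds and seedlings, and 49, 52 and 43 for stages in C. grandiflora, C. rubella and C. orientalis, where 99.6%, 83.2%, 76.6%, 72.9%, 92.4%, 90.4% and 86.1% of all genes were called.

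The median log2 differences of the 57 genes moved with scaling. On library sums, C. rubella minus C. grandiflora was 0.013 in expanding buds and -0.018 in seedlings, and C. orientalis minus C. grandiflora 0.10, 0.025 and -0.020 in expanding buds, dividing buds and seedlings. C. orientalis minus C. rubella was 0.11 in expanding buds. Expanding minus dividing buds was -0.057, -0.046 and 0.036 in C. grandiflora, C. rubella and C. orientalis, and dividing buds minus seedlings 0.013, 0.020 and 0.076. Expanding buds minus seedlings was 0.043 in C. rubella and 0.11 in C. orientalis. With RLE, C. rubella and C. orientalis minus C. grandiflora were -0.19 and -0.038 in expanding buds, and C. orientalis minus C. grandiflora 0.056 in dividing buds. Expanding buds minus seedlings was -0.35 in C. rubella and -0.23 in C. orientalis, and dividing buds minus seedlings -0.49 and -0.41. The median stage share of the 57 genes was 31.3% on library sums, 55.9% with TMM and 58.7% with RLE, an alternative added after the data were seen. The median coefficient of variation (4.60% with TMM, 4.74% with RLE) and the share of reads moved by less than their spread. Depth was no limit for these genes.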
